A study of Mus musculus with 47 samples.

Results

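The autophagy and lysosome genes described here are 36 of the 24391 genes counted in each of the 2 deposited tables. They were chosen by gene symbol, as core autophagy machinery, mitophagy receptors and lysosomal proteins, with earlier results of these data known. All 36 symbols were found in both tables. The measurements are RNA sequencing counts from brown fat, white fat and gastrocnemius muscle of mice labelled C57Bl6, taken on day 21. The NTB mice were tumour-free, and no antibody is stated for them. The other mice had been inoculated with HT1080 cells, a human fibrosarcoma line, and received weekly either an IgG1 antibody or the antibody 3P10, each at 3 mg/kg from day 0. Both tumour-bearing groups therefore share the tumour and an antibody injection. Whether NTB mice were injected is not stated, and the immune status of the host is not given in the labels. 3P10 blocks GFRAL, the hindbrain receptor of the stress hormone GDF15, whose signalling lowers food intake and body weight. There were 47 libraries: 5 per group in muscle and in white fat, and 6 of NTB, 5 of IgG1 and 6 of 3P10 mice in brown fat.

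Autophagy encloses cytoplasm, organelles or protein aggregates in a membrane and delivers them to the lysosome for digestion. The ULK1 complex and the Beclin 1 lipid kinase complex start the membrane, lipid transfer proteins and phosphoinositide binders enlarge it, and a conjugation system attaches ATG8 proteins (the LC3 and GABARAP families) to it. Cargo receptors tie ubiquitinated cargo or mitochondria to ATG8. The transcription factors TFEB and TFE3 switch on lysosomal and autophagy genes through E-boxes, and in muscle the forkhead factor FOXO3 does so during fasting and wasting. RNA levels, as measured here, do not give the rate at which cargo is degraded.

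The binding site of TFEB and TFE3 has a core that reads TCACGTG on either strand. RefSeq promoter sequences (build GRCm38.p6) were scanned for 30 of the 36 genes, with 35 promoters among them. Member promoters on a chromosome that was set aside were not scanned. That limit was not applied to the set of all promoters, so the shares below rest on unlike selections. In the 250 bases before the start, 6 of the 35 promoters held the core, which is 17.1%, against 3.13% of all 32851 promoters. The genes with a match were Atg3, Atg7, Lamp1, Ctsd, Gaa and Mcoln1. The forkhead core GTAAACA was in 0 of the 35, against 3.17% of all promoters. A match describes these letters in this window and is not a bound site. The windows of the 4 genes with more than 1 match in a run are printed 5′ to 3′ on the strand of the gene, with the cores in capitals. A core followed by A reads TCACGTG on both strands and was counted on each.
Atg3 (chr16:45158714-45158784, plus strand, conjugating enzyme of the ATG8 system, 3 matches): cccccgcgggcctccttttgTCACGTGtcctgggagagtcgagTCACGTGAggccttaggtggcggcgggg
Mcoln1 (chr8:3500427-3500500, plus strand, lysosomal calcium channel, 3 matches): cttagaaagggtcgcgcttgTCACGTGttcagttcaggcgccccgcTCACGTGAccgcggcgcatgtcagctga
Lamp1 (chr8:13159079-13159160, plus strand, lysosomal membrane protein, 4 matches): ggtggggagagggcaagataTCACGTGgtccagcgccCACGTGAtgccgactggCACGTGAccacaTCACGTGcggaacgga
Ctsd (chr7:142387899-142387946, minus strand, aspartic protease of the lysosome, 2 matches): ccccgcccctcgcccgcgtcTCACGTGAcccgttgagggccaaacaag
Of the 6 genes with a match, Atg3 alone was called in any comparison of the models without further terms, in brown fat.

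Muscle libraries held 24759436 to 33502175 counts, white fat libraries 18621423 to 80661547 and brown fat libraries 798886 to 2459761. The white fat maximum was that of IgG1 replicate 4, against a median of 25974221. Levels are given as CPM, counts scaled to a library of 1000000 counts, after TMM scaling within a tissue. Every one of the 36 genes had counts in every library, and their summed share of a library was 0.369 to 0.613% in muscle, 0.763 to 1.06% in white fat and 0.518 to 0.686% in brown fat. Marker genes fitted the labelled tissues: summed brown adipocyte markers were at least 8293 CPM in every brown fat library, adipocyte markers at least 24320 CPM in every white fat library, and skeletal muscle markers at least 196250 CPM in every muscle library. In muscle, the libraries numbered 14, 15, 16 and 23 in the labels (IgG1 replicates 2 and 4, 3P10 replicate 2 and NTB replicate 3) stood apart from the other 11 on the first principal component. In white fat, IgG1 replicates 2 and 4, numbered 14 and 23, stood apart. Results for these tissues are given with all libraries and then without the 4. In brown fat, library numbers run group by group, so library order and group cannot be told apart. The labels do not say that libraries of a group are from separate mice, so p-values measure the spread between these libraries.

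A gene was called at an adjusted p under 0.05 in edgeR's quasi-likelihood test, with Benjamini-Hochberg adjustment over all genes tested in the tissue. All 36 genes passed the low-count filter in white fat and muscle, and 35 passed in brown fat, where Vps18, a subunit of the complex that tethers vesicles to the lysosome, had too few counts. Over the 9 comparisons 15 differences were called, in 12 genes. Per comparison, 0 to 13.9% of the members and 0 to 11.6% of all genes tested were called, as set side by side below. The log2 fold changes of these 15 were between 0.36 and 1.16 in size, and 24 genes were called nowhere. Bnip3 alone was called in more than 1 tissue. The map of fold changes shows that muscle of the IgG1 group held the most calls among comparisons with NTB.

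**Figure D1:**
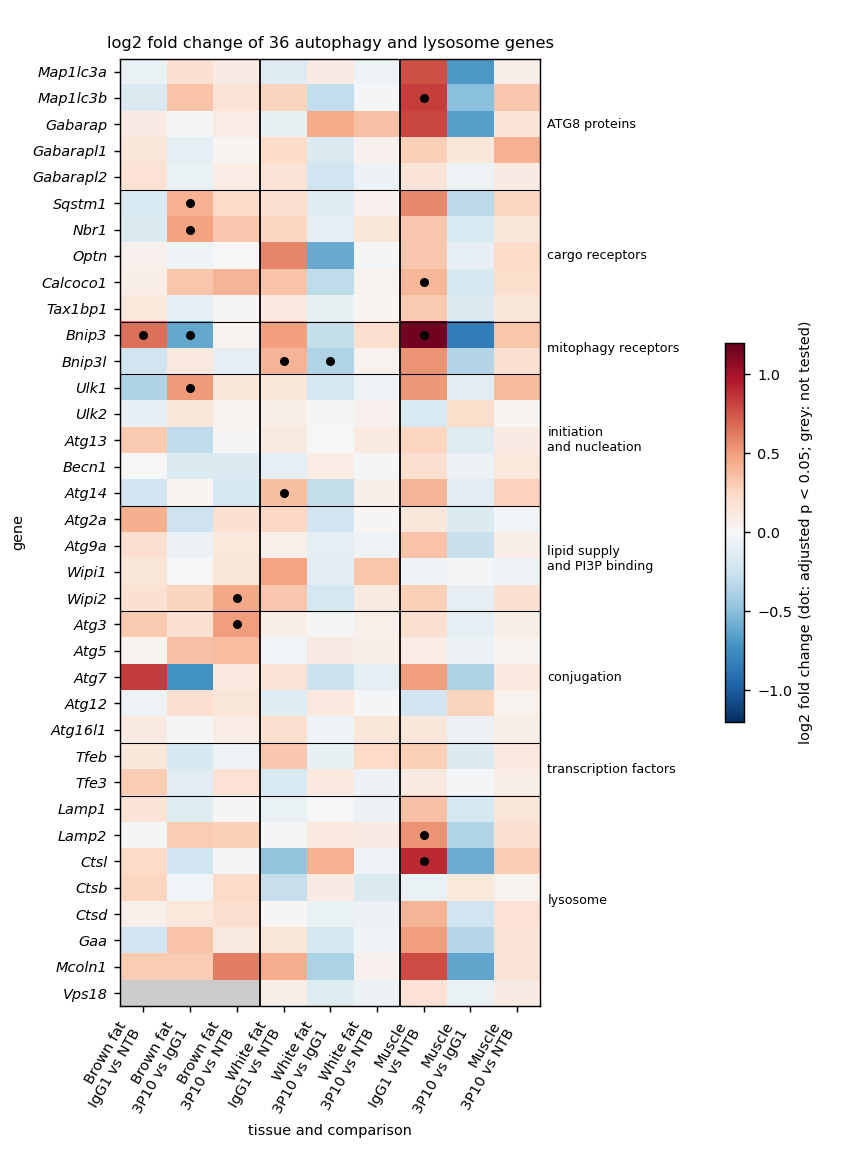
log2 fold change of each of the 36 genes (rows, grouped by role) in the 9 comparisons (columns, 3 per tissue), with a dot where the edgeR adjusted p was under 0.05 and grey where the gene was not tested. Muscle of the IgG1 group against NTB is red for 32 of the 36 genes and holds 5 dots.

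In muscle, 5 of the 36 genes were higher in the tumour-bearing IgG1 group than in NTB and 0 were lower, 13.9% of the members against a background of 5.6% of all 13283 genes called in either direction. They were Bnip3, which tethers mitochondria to ATG8, Map1lc3b, an LC3 protein, Lamp2 and Ctsl of the lysosome, and the cargo receptor Calcoco1. Of the 36 fold changes 32 were positive, with a median log2 fold change of 0.32, against 0.01 over all genes tested. Since the genes were chosen with earlier results of these data known, these shares describe the list and are no independent test of it. In bulk tissue, fewer cells of a type and less RNA per cell cannot be told apart.

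Among the ATG8 proteins, Map1lc3b stood at 126, 135, 187, 135 and 136 CPM in the 5 NTB libraries and at 189, 336, 213, 348 and 189 CPM in the 5 IgG1 libraries. The 3P10 libraries had 183, 207, 142, 181 and 185 CPM. Every IgG1 library was above every NTB library, with a narrow gap between NTB replicate 3 and the lowest IgG1 libraries, and 3P10 overlapped both groups. Map1lc3b rose from 144 ± 24.7 CPM (SD, n = 5) to 255 ± 79.9 CPM (SD, n = 5), 1.77-fold, with a log2 fold change of 0.83 (SE 0.19, edgeR adjusted p = 0.0211). Gabarap and Map1lc3a had fold changes of a like size with larger standard errors, while Gabarapl1 and Gabarapl2 had smaller ones, at 0.28 (SE 0.17, edgeR adjusted p = 0.368) and 0.16 (SE 0.14, edgeR adjusted p = 0.588). Gabarap stood at 199, 171, 409.9, 225 and 206 CPM in NTB, at 518, 665, 228, 489 and 216 CPM in IgG1 and at 208, 425, 208, 270.3 and 237 CPM in 3P10. Map1lc3a stood at 80.6, 67.4, 203, 62.7 and 72.0 CPM in NTB, at 138, 240.1, 105, 221 and 121 CPM in IgG1 and at 98.7, 142, 77.7, 84.5 and 109 CPM in 3P10. In both genes NTB replicate 3 and 3P10 replicate 2, 2 of the 4 libraries that stood apart, were the highest of their group. Neither Gabarap nor Map1lc3a was called (log2 fold change of Gabarap 0.80, SE 0.33, edgeR adjusted p = 0.169, and of Map1lc3a 0.77, SE 0.33, edgeR adjusted p = 0.188).

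Of the cargo receptors, which bind ubiquitinated cargo or organelles and hand it to ATG8, all 5 had positive fold changes, from 0.31 to 0.57 on the log2 scale, and 1 was called. Calcoco1 stood at 75.5, 93.4, 85.1, 85.5 and 83.4 CPM in NTB, at 93.5, 123, 116, 113 and 112.4 CPM in IgG1 and at 111, 103, 96.5, 82.9 and 95.4 CPM in 3P10. The highest NTB library was just under the lowest IgG1 library, and 3P10 overlapped both. Calcoco1 rose 1.32-fold, with a log2 fold change of 0.40 (SE 0.11, edgeR adjusted p = 0.0497). The largest fold change of the 5 was that of Sqstm1, the receptor p62, with 0.57 (SE 0.22, edgeR adjusted p = 0.144).

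The mitophagy receptor Bnip3 had the largest fold change of the 36 genes in muscle. It stood at 99.9, 89.1, 153, 105 and 108 CPM in NTB, at 216, 338, 160.2, 389.5 and 136 CPM in IgG1, and at 116, 173, 110.5, 141 and 156 CPM in 3P10. IgG1 replicates 2 and 4 were the highest of the 15 libraries, and IgG1 replicate 5 fell within the NTB range. Bnip3 rose from 111 ± 24.4 CPM (SD, n = 5) to 248 ± 111 CPM (SD, n = 5), 2.24-fold, with a log2 fold change of 1.16 (SE 0.26, edgeR adjusted p = 0.0178). Its paralog Bnip3l (NIX) had a log2 fold change of 0.54 (SE 0.17, edgeR adjusted p = 0.0774).

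Of the initiation and nucleation genes 4 of 5 had positive fold changes and 0 were called. Atg14, the subunit that directs the lipid kinase complex to autophagy, stood at 9.91, 12.05, 11.6, 10.1 and 12.2 CPM in NTB, at 14.3, 15.7, 15.6, 12.7 and 15.9 CPM in IgG1 and at 15.2, 11.6, 15.01, 14.2 and 11.6 CPM in 3P10. The NTB and IgG1 libraries did not overlap, and the log2 fold change was 0.41 (SE 0.12, edgeR adjusted p = 0.0574). Ulk1, the kinase that starts autophagy, stood at 51.3, 60.3, 35.5, 68.6 and 62.9 CPM in NTB, at 99.9, 66.3, 93.1, 60.1 and 79.9 CPM in IgG1 and at 87.4, 47.4, 74.5, 87.1 and 66.9 CPM in 3P10. In each group the libraries that stood apart were its lowest for Ulk1, opposite to their place for Map1lc3a. The lipid supply and conjugation genes had median log2 fold changes of 0.21 and 0.14, with 0 of 4 and 0 of 5 called, and Tfeb and Tfe3 had 0.29 and 0.11, neither called.

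In the lysosomal group 7 of 8 genes had positive fold changes and 2 were called. Lamp2, a membrane protein needed for fusion with autophagosomes, stood at 102, 109.9, 88.4, 109 and 118 CPM in NTB, at 156, 158, 137, 171 and 146 CPM in IgG1 and at 122, 98.0, 103, 144 and 132 CPM in 3P10. The NTB and IgG1 groups did not overlap. Lamp2 rose 1.45-fold, with a log2 fold change of 0.54 (SE 0.13, edgeR adjusted p = 0.0232). Ctsl, the cysteine protease cathepsin L, stood at 149, 145, 199, 145 and 161 CPM in NTB, at 134, 418, 281, 424 and 225 CPM in IgG1 and at 167, 221, 164, 202 and 226 CPM in 3P10. IgG1 replicate 1 was lower than every NTB library while the other 4 IgG1 libraries were above all 5, and the log2 fold change was 0.89 (SE 0.25, edgeR adjusted p = 0.0454). Groups did not overlap for 4 members in this comparison (Map1lc3b, Lamp2, Calcoco1 and Atg14), against 6.38% of all genes. Mcoln1 and Gaa, acid alpha-glucosidase, followed with 0.78 (SE 0.26, edgeR adjusted p = 0.0922) and 0.50 (SE 0.16, edgeR adjusted p = 0.0705).

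**Figure D2:**
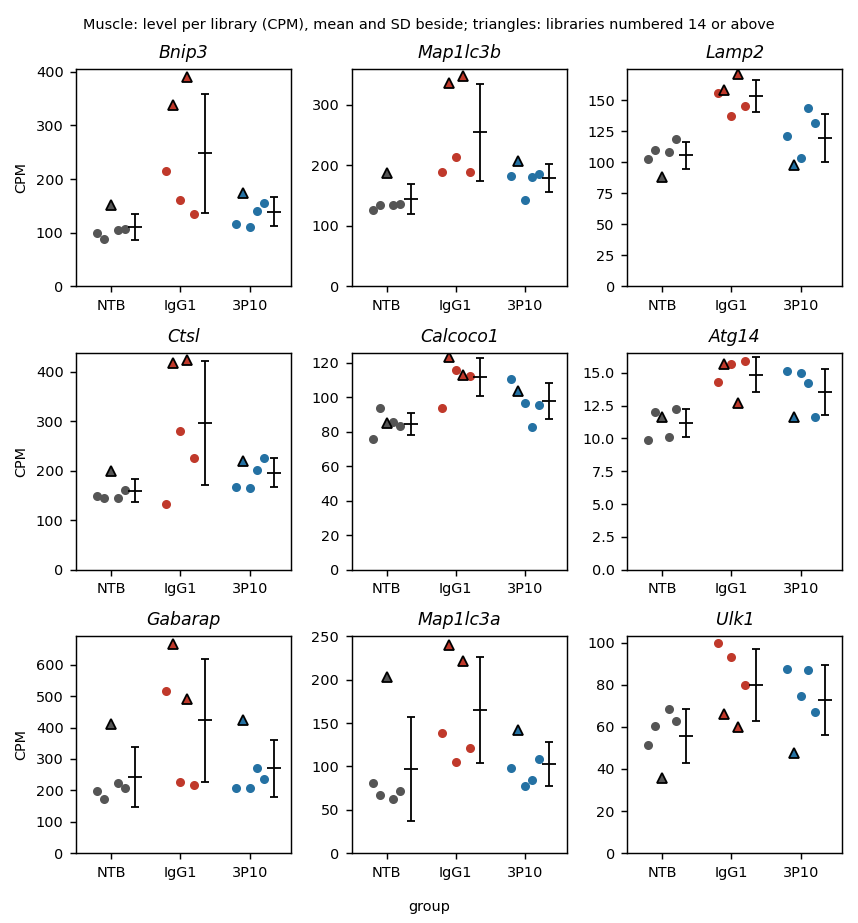
CPM per library (points, axis from 0) of 9 genes in muscle of the NTB, IgG1 and 3P10 groups, with mean and SD (n = 5) beside each group, and triangles for the 4 libraries numbered 14, 15, 16 and 23. For Map1lc3a and Gabarap the NTB triangle (203 and 409.9 CPM) sits above the other 4 NTB libraries, and for Ulk1 (35.5 CPM) below them.

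These muscle calls depend on single libraries. Over 23 alternatives, Lamp2 kept its call in 19, Bnip3 in 18, Map1lc3b in 16, Ctsl in 9 and Calcoco1 in 4. Calcoco1 lost it under RLE factors, with no low-count filter and in 14 of the 15 fits that left out 1 library. Without IgG1 replicate 4, NTB replicate 1 or NTB replicate 2 the count of called members was 0, and without IgG1 replicate 1 it was 11. Over all genes, 327 were called without NTB replicate 1 and 1307 without IgG1 replicate 1, beside 744 with all libraries. With the 4 libraries that stood apart left out, 6 of the 36 genes were higher and 0 lower, against 3.07% of all genes higher. These were Map1lc3a with a log2 fold change of 0.78 (SE 0.13, edgeR adjusted p = 0.00613), Bnip3 with 0.76, Ulk1 with 0.58, Map1lc3b with 0.57, Atg14 with 0.47 and Lamp2 with 0.41. Ctsl had 0.51 (SE 0.19, edgeR adjusted p = 0.131) and Calcoco1 0.35 (SE 0.12, edgeR adjusted p = 0.101) in that fit.

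With all 15 muscle libraries and a term for the 4, 18 of the 36 genes were higher in IgG1 than in NTB and 0 were lower, against 9.16% of all genes higher and 9.32% lower. Of the ATG8 proteins 3 of 5 were called, Map1lc3b at 0.68, Map1lc3a at 0.63 and Gabarap at 0.63 on the log2 scale. The cargo receptors Sqstm1, Calcoco1, Nbr1 and Tax1bp1 were called at 0.43, 0.38, 0.33 and 0.32, and both mitophagy receptors at 0.94 for Bnip3 and 0.41 for Bnip3l. Of the initiation genes, Ulk1 was called at 0.66, Atg14 at 0.43 and Atg13 at 0.34, and the lipid scramblase gene Atg9a at 0.40. Of the lysosomal genes, Ctsl was called at 0.71, Mcoln1 at 0.63, Gaa at 0.58, Lamp2 at 0.57 and Ctsd at 0.32. The conjugation enzymes and Tfeb and Tfe3 had 0 calls in this fit. The term itself was called for 21 of the 36 genes, against 53.9% of all genes: 15 were higher in the 4 libraries, Map1lc3a most (1.03 on the log2 scale, SE 0.13), and 6 were lower, Ulk2 (-0.85), Ulk1, Atg13, Atg9a, Wipi1 and Gaa. The 4 libraries stood apart on the first principal component of these same counts. Calls of the term are therefore no independent test of that split, and the 18 calls above also rest on it.

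**Figure D3:**
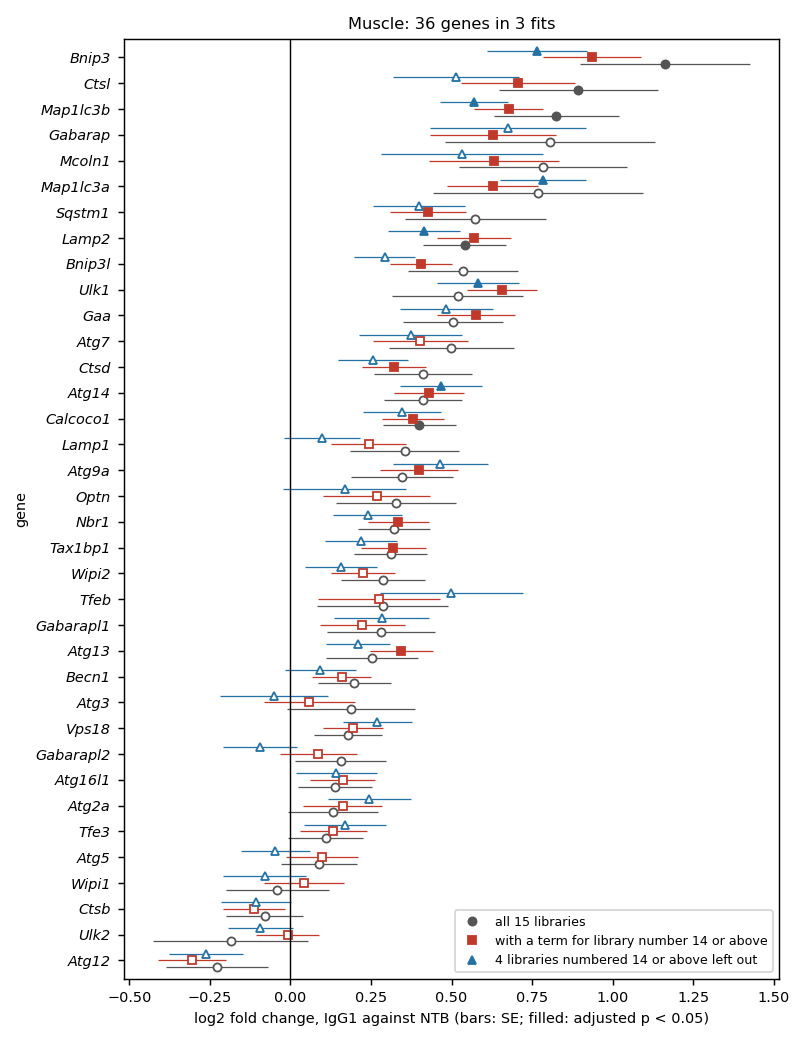
log2 fold change (points) with SE (bars) of the 36 genes in muscle, IgG1 against NTB, with all 15 libraries (grey circles), with a term for library numbers of 14 or above (red squares) and with those 4 libraries left out (blue triangles); filled symbols have an edgeR adjusted p under 0.05. The 3 fits call 5, 18 and 6 genes.

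Fibroblast markers moved in both tumour-bearing groups in muscle. Against NTB, 4 of 8 were called lower in IgG1 and 0 of 8 in 3P10, where all 8 fold changes were negative. Between 3P10 and IgG1, 0 of 8 were called. Their summed level lay between 491 and 803 CPM for IgG1, 562 and 755 CPM for 3P10 and 927 and 1156 CPM for NTB. The other markers are given for IgG1 against NTB. Macrophage markers, whose cells are rich in lysosomes, gave 0 calls of 15 and overlapping sums (NTB 65.0 to 117 CPM, IgG1 78.1 to 101 CPM, 3P10 69.98 to 118 CPM), with no marker at 0 in any library. Endothelial markers had negative fold changes in 9 of 9 (median log2 -0.48, 1 called lower), with sums between 99.6 and 221 CPM for IgG1 and between 131 and 327 CPM for NTB. Adipocyte markers had positive ones in 7 of 7 (median log2 0.65, 0 called), with sums between 302 and 834 CPM for IgG1 and between 239 and 773 CPM for NTB, and 1 of 7 brown adipocyte markers was lower. The part of these cell types in the gene differences was not tested.

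Between the 3P10 and IgG1 groups, 0 of the 36 muscle genes were called, against 0.211% of all genes. By unadjusted p under 0.05 there were 7, against 10.8% of all genes, and DESeq2 called 0. The fold changes of 32 genes were negative, with a median log2 of -0.17, against -0.02 over all genes. Both comparisons share the IgG1 libraries, so high IgG1 values enter them with opposite signs. Bnip3 had -0.83 (SE 0.26, edgeR adjusted p = 0.222), Ctsl -0.60 (SE 0.25, edgeR adjusted p = 0.385) and Map1lc3b -0.51 (SE 0.19, edgeR adjusted p = 0.348). In the fit with a term for the 4 libraries, Bnip3 fell by 0.59 on the log2 scale (edgeR adjusted p = 0.035), against 2.48% of all genes lower, and it was the only member called. Between 3P10 and NTB, edgeR called 0 of the 36 genes and 0% of all genes, and DESeq2 called 0 members. In that comparison 2 members (Gabarapl1 and Atg14) had an unadjusted p under 0.05, against 4.24% of all genes. The median log2 fold change was 0.13.

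In white fat, 2 of the 36 genes were higher in the IgG1 group than in NTB and 0 were lower. That is 5.56% of the members, under the background of 8.64% of all 14402 genes. The genes were the mitophagy receptor Bnip3l and the nucleation subunit Atg14. The median log2 fold change of the members was 0.14, against -0.01 over all genes. An unadjusted p under 0.05 was found for 12 of the 36 members, against 29.1% of all genes.

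Bnip3l stood at 111, 134, 148, 145 and 132 CPM in NTB, at 191, 182, 173, 176 and 166 CPM in IgG1 and at 137, 162, 120.3, 135 and 136 CPM in 3P10. Every IgG1 library was above every library of the other groups. It rose 1.33-fold against NTB, with a log2 fold change of 0.41 (SE 0.10, edgeR adjusted p = 0.027). Atg14 stood at 15.3, 13.9, 16.3, 14.1 and 16.7 CPM in NTB, at 17.4, 21.0, 20.3, 19.7 and 19.4 CPM in IgG1 and at 16.1, 15.1, 16.7, 16.6 and 15.7 CPM in 3P10. Again IgG1 lay above both other groups without overlap. Atg14 rose 1.28-fold, with a log2 fold change of 0.36 (SE 0.09, edgeR adjusted p = 0.0278).

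Other members had groups that did not overlap or a changed order of libraries without a call. The cargo receptor gene Nbr1 stood at 111, 134, 141, 140.2 and 142 CPM in NTB and at 159, 166, 159.7, 149 and 165 CPM in IgG1 (log2 fold change 0.25, SE 0.09, edgeR adjusted p = 0.0807). The 3P10 libraries lay between and overlapped both, at 148, 157, 132, 154 and 148 CPM. Atg16l1, the scaffold that places the conjugation system on the membrane, stood at 64.1, 69.9, 71.5, 70.5 and 67.4 CPM in NTB, at 87.9, 72.2, 75.8, 75.1 and 82.2 CPM in IgG1 and at 71.8, 84.1, 71.7, 78.8 and 72.3 CPM in 3P10. All tumour-bearing libraries were thus above all NTB libraries, by a small margin (IgG1 against NTB 0.20, SE 0.08, edgeR adjusted p = 0.125). Atg16l1 was also the only member whose 3P10 and NTB groups did not overlap, against 0.847% of all genes. Groups that did not overlap were found for 4 members in this comparison (Bnip3l, Atg14, Nbr1 and Atg16l1), against 8.85% of all genes. Wipi1, which binds the phosphoinositide of the growing membrane, stood at 24.9, 31.8, 35.8, 30.8 and 36.9 CPM in NTB, at 52.6, 36.8, 48.4, 36.9 and 48.0 CPM in IgG1 and at 38.2, 55.4, 39.8, 34.6 and 33.9 CPM in 3P10. Its 2 lowest IgG1 libraries were replicates 2 and 4, which stood apart.

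**Figure D4:**
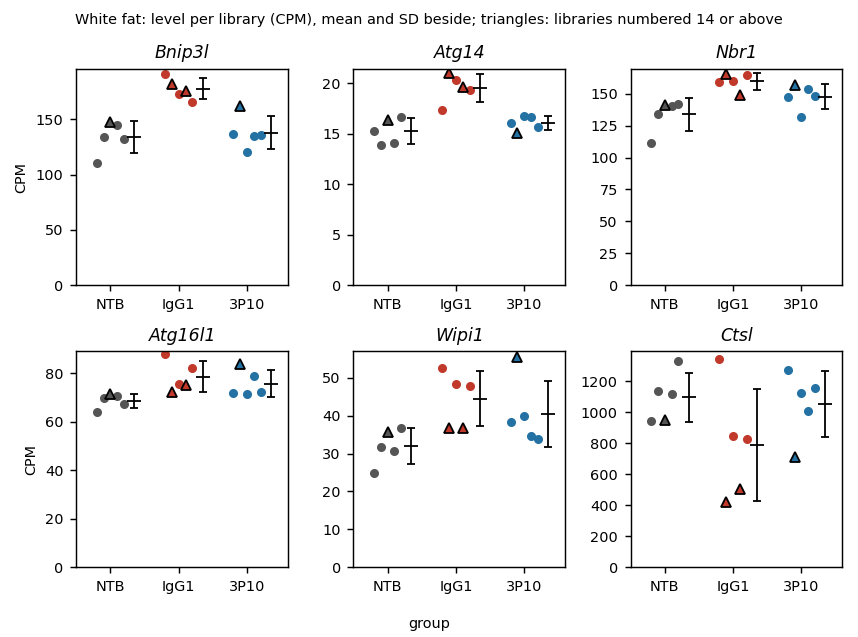
CPM per library (points, axis from 0) of 6 genes in white fat of the NTB, IgG1 and 3P10 groups, with mean and SD (n = 5) beside each group, and triangles for libraries numbered 14 or above. All 5 IgG1 points lie above the other groups for Bnip3l and Atg14, while Ctsl runs from 421 to 1346 CPM within the IgG1 group.

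The 3P10 group was lower than the IgG1 group for 1 of the 36 genes, Bnip3l, and higher for 0, against a background of 7.42% of all genes. Bnip3l fell by 0.36 on the log2 scale (SE 0.10, edgeR adjusted p = 0.0447), 1.29-fold. This call was kept in 6 of 23 alternatives and in 3 of the 15 fits that left out 1 library. The groups did not overlap for 2 members, Bnip3l and Atg14, against 5.65% of all genes. Atg14 had -0.29 (SE 0.09, edgeR adjusted p = 0.0624) and Optn, a receptor for ubiquitinated mitochondria and bacteria, -0.61 (SE 0.20, edgeR adjusted p = 0.0656). Between 3P10 and NTB, edgeR called 0 members and 0% of all genes, and DESeq2 called 0 members. In that comparison 1 member, Wipi1, had an unadjusted p under 0.05, against 3.76% of all genes.

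With the 4 libraries left out, Bnip3l had 0.44 against NTB (SE 0.11, edgeR adjusted p = 0.0844) and Atg14 0.34 (SE 0.11, edgeR adjusted p = 0.13), and Wipi1 was the only member called, at 0.68 (SE 0.13, edgeR adjusted p = 0.0433), against 0.276% of all genes higher. In that fit 0 members and 0% of all genes were called between 3P10 and IgG1. With a term for these libraries 2 members, Bnip3l and Atg14, were called higher, at 0.38 and 0.35, against 2.75% of all genes. That term itself was called for 0 of the 36 genes, against 0.146% of all genes. On the first principal component of white fat, libraries 14 and 23 lay at 76.7 and 93.2, and libraries 15 and 16 at -41.3 and -22.3. The term joins these unlike libraries, so its 0 calls cannot show whether libraries 14 and 23 differ from the others. Leaving out IgG1 replicate 2, IgG1 replicate 4, NTB replicate 1 or NTB replicate 2 ended both calls against NTB, and leaving out 3P10 replicate 2 raised the count to 6. Over all genes, the fits that left out 1 library called 344 to 2354 genes, beside 1245 with all libraries. Over 23 alternatives, Bnip3l kept its call against NTB in 18 and Atg14 in 16. DESeq2 called 9 members against NTB, adding Nbr1, Optn, Bnip3, Atg2a, Wipi1, Wipi2 and Atg16l1. The share of all genes that DESeq2 called is not given here, so this count has no background beside it.

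Cell type markers also moved with the IgG1 group in white fat. Of the fibroblast markers 5 of 8 were lower than in NTB, with sums between 699.7 and 1879 CPM for IgG1, 2805 and 4358 CPM for NTB and 1658 and 3359 CPM for 3P10. Macrophage markers were not called against NTB (0 of 15), and 5 of 15 were higher in 3P10 than in IgG1, as were 5 of 8 fibroblast markers, with macrophage sums between 233 and 516 CPM for IgG1, 427 and 974 CPM for 3P10 and 419.6 and 708 CPM for NTB. In IgG1 replicates 2 and 4, which stood apart, brown adipocyte markers reached 4924 and 5044 CPM and epithelial markers 220 and 888 CPM. The other IgG1 libraries had at most 1335 and 9.76 CPM, and NTB libraries at most 1150.1 and 27.1 CPM. Ctsl, which macrophages express at high levels, was not called in white fat. It stood at 944, 1139, 952, 1120.0 and 1328 CPM in NTB, at 1346, 421, 845, 504 and 824 CPM in IgG1 and at 1271, 709, 1121, 1005 and 1153 CPM in 3P10. IgG1 replicates 2 and 4 and 3P10 replicate 2, all numbered 14 or above, were the lowest of the 15 libraries. The part of these cells in the member differences was not tested.

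Whether a difference between IgG1 and NTB was itself unlike in muscle and white fat was tested as an interaction in a joint model of both tissues. No member was called (0 of 36, against 1.11% of all genes), and 6 had an unadjusted p under 0.05, against 2314 of all 14898 genes. Ctsl came nearest, with a difference of 1.34 on the log2 scale in the joint model (SE 0.37, edgeR adjusted p = 0.0653) beside 0.89 and -0.48 in the separate fits of muscle and white fat, and DESeq2 called it (1.33, DESeq2 adjusted p = 0.0217). Map1lc3a and Gabarap followed with differences of 0.88 and 0.86. For 3P10 against IgG1 0 of 36 were called, against 0.208% of all genes, and DESeq2 called 0. In that comparison 3 members (Gabarap, Ctsl and Lamp2) had an unadjusted p under 0.05, against 2233 of all 14898 genes. White fat and muscle libraries of the same group and replicate carry the same number, and the labels do not say whether they come from 1 mouse. With same-numbered libraries as a block, 0 of 36 members were called in either interaction, and Ctsl had 1.36 for IgG1 against NTB (SE 0.49, edgeR adjusted p = 0.23).

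In brown fat the tumour-bearing IgG1 group differed from NTB in 1 of 35 genes tested, Bnip3, which was higher. This is 2.86% of the members, near the background of 2.97% of all 8711 genes. Bnip3 stood at 491 CPM in the lowest, 689 at the median and 872 CPM in the highest of 6 NTB libraries, and at 775, 783, 1411, 1201 and 1301 CPM in the 5 IgG1 libraries. In the 6 3P10 libraries the lowest was 529, the median 767 and the highest 799 CPM. Of the IgG1 libraries 3 lay above all others and 2 lay within the NTB range. Bnip3 rose from 694 ± 158 CPM (SD, n = 6) to 1094 ± 297 CPM (SD, n = 5), 1.58-fold, with a log2 fold change of 0.66 (SE 0.17, edgeR adjusted p = 0.0358). The call was kept in 16 of 24 alternatives and lost when IgG1 replicate 3, 4 or 5 or NTB replicate 1, 2, 3 or 5 was left out.

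Atg7, the E1-like enzyme that activates ATG8 and Atg12, had the largest fold change of this comparison but low counts and no call. It stood at 7.52, 10.8 and 15.9 CPM as the lowest, median and highest of NTB and at 18.2, 15.6, 15.96, 31.6 and 18.7 CPM in IgG1, where replicate 4 was far above the rest. The 3P10 libraries had 5.12, 12.5 and 18.01 CPM as lowest, median and highest. Atg7 rested on 73, 107 and 100 counts in all in the NTB, IgG1 and 3P10 groups, and its log2 fold change against NTB was 0.84 (SE 0.27, edgeR adjusted p = 0.0926).

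Between the 3P10 and IgG1 groups in brown fat, 3 members were higher (Sqstm1, Nbr1 and Ulk1) and 1 was lower (Bnip3), 11.4% of the 35, near the background of 11.6% of all genes. The 2 cargo receptors among them, p62 and NBR1, bind each other and collect ubiquitinated proteins. Sqstm1 stood at 256, 223, 264, 315 and 281 CPM in IgG1 and at 294, 365 and 422 CPM as the lowest, median and highest of 3P10. NTB overlapped both, with 277, 298 and 363 CPM as lowest, median and highest. Sqstm1 rose 1.33-fold from IgG1 to 3P10, with a log2 fold change of 0.41 (SE 0.10, edgeR adjusted p = 0.0134), and kept its call in all 24 alternatives run.

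Nbr1 stood at 68.2, 55.9, 53.6, 66.0 and 42.6 CPM in IgG1 and at 64.8, 77.9 and 94.9 CPM as the lowest, median and highest of 3P10. NTB ran from 53.2 to 75.4 CPM with a median of 63.0. The groups overlapped at the lowest 3P10 library. Nbr1 rose 1.40-fold (log2 fold change 0.48, SE 0.14, edgeR adjusted p = 0.0238), a call lost without IgG1 replicate 3, IgG1 replicate 5 or 3P10 replicate 6. Ulk1 stood at 61.3, 50.4, 53.6, 71.4 and 68.8 CPM in IgG1, at 64.8, 81.5 and 116 CPM as lowest, median and highest of 3P10, and at 61.0, 75.6 and 114 CPM in NTB. Its fold change from IgG1 to 3P10 was 1.42 (log2 0.51, SE 0.16, edgeR adjusted p = 0.0438), called in 14 of 24 alternatives. Bnip3 was lower in 3P10 than in IgG1 by 1.53-fold (log2 fold change -0.61, SE 0.17, edgeR adjusted p = 0.0195), a call lost without IgG1 replicate 3, IgG1 replicate 5 or 3P10 replicate 3.

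Against NTB, the 3P10 group was higher for 2 members of 35, Atg3 and Wipi2, and lower for 0, 5.71% of the members against a background of 5.75% of all genes. Both act where ATG8 is attached to lipid: WIPI2 brings the conjugation scaffold to the membrane, and ATG3 is the E2-like enzyme of the reaction. Atg3 stood at 33.5, 44.7 and 49.7 CPM as lowest, median and highest of NTB and at 53.9, 60.9 and 66.5 CPM in 3P10, without overlap. The IgG1 libraries overlapped both groups, at 44.3, 47.7, 54.7, 54.2 and 62.0 CPM. Atg3 rose 1.42-fold (log2 fold change 0.50, SE 0.12, edgeR adjusted p = 0.0167) and kept its call in all 24 alternatives run. Wipi2 stood at 46.6, 63.3 and 66.5 CPM in NTB and at 80.6, 82.9 and 93.2 CPM in 3P10, again without overlap. IgG1 spread across both, at 76.1, 50.4, 65.0, 85.0 and 71.8 CPM. Wipi2 rose 1.37-fold (log2 fold change 0.46, SE 0.11, edgeR adjusted p = 0.0222), a call lost without NTB replicate 1, its lowest library. Groups without overlap were found for these 2 members, against 3% of all genes. Of the 35 fold changes 30 were positive, with a median log2 of 0.12.

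Lamp2 had no call in brown fat, with 272, 297 and 332 CPM as lowest, median and highest of NTB, 286, 218, 308, 345 and 324 CPM in IgG1 and 320.4, 351 and 431 CPM in 3P10. The 3P10 libraries overlapped both other groups at their upper end (3P10 against IgG1 0.30, SE 0.11, edgeR adjusted p = 0.0677).

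**Figure D5:**
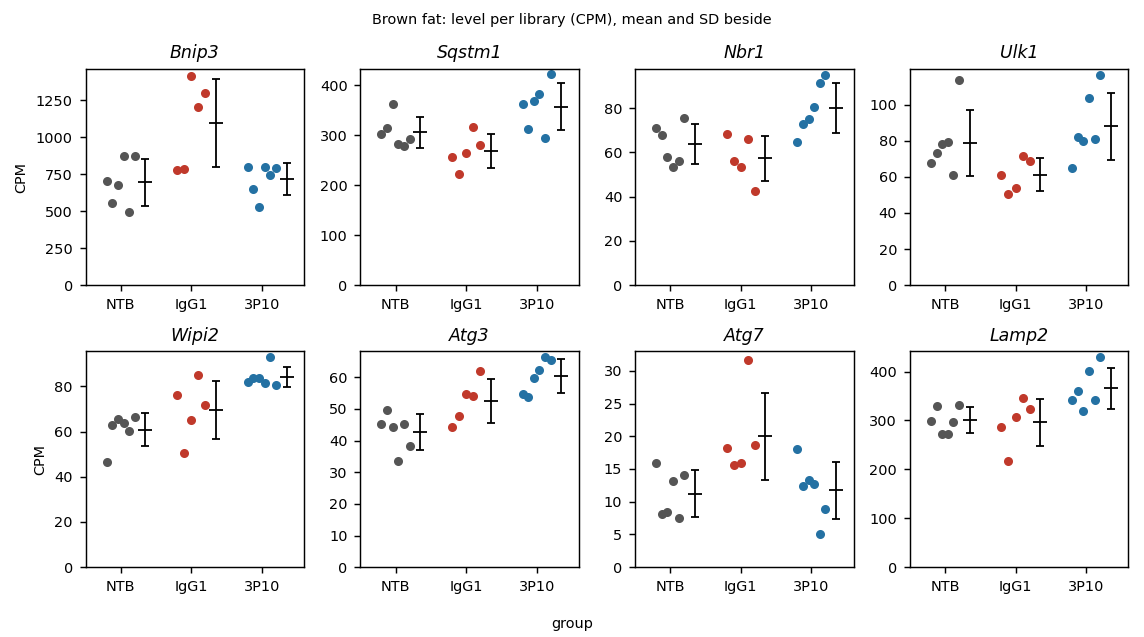
CPM per library (points, axis from 0) of 8 genes in brown fat of the NTB (n = 6), IgG1 (n = 5) and 3P10 (n = 6) groups, with mean and SD beside each group. Atg3 and Wipi2 of the 3P10 group lie above all NTB libraries, and 3 IgG1 libraries (1201 to 1411 CPM) lie above all others for Bnip3.

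Skeletal muscle RNA was present in brown fat in unequal amounts, with marker sums between 621 and 2369.7 CPM for NTB, between 139 and 1806 CPM for IgG1 and between 0.829 and 1829 CPM for 3P10, and 0 of 9 markers called in either comparison with IgG1. With a score of these markers in the model, an alternative added after the data were seen, Bnip3 was called against NTB at 0.64 (edgeR adjusted p = 0.0484), and the 4 members called between 3P10 and IgG1 were called too. Summed macrophage markers lay between 97.3 and 142 CPM for NTB, between 159 and 210.1 CPM for IgG1, which did not overlap NTB, and between 126 and 165 CPM for 3P10, and 1 of 7 was called higher in IgG1. Other markers moved with the 3P10 group. Against NTB, 3 of 7 endothelial markers were lower, with all 7 fold changes negative and sums between 646 and 974 CPM for 3P10 against 909 to 1401 CPM for NTB. Of the fibroblast markers 3 of 8 were lower, with sums between 524 and 726 CPM for 3P10 against 591 to 896 CPM for NTB. Higher in that comparison were 2 of 7 adipocyte, 1 of 7 brown adipocyte and 1 of 7 macrophage markers. Against IgG1, 3 of 8 fibroblast, 1 of 7 endothelial and 1 of 7 macrophage markers were lower in 3P10, 3 of 7 brown adipocyte markers were higher and 1 lower, and 1 of 7 adipocyte markers was higher and 1 lower. The part of these cells in the member differences was not tested.

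Levels of the members also differed between tissues without a tumour. The NTB libraries of muscle and white fat came from the same table and kit, but each tissue was scaled on its own, and CPM is a share of the library's counts, of which muscle proteins take a large part in muscle, so the values are a description with no test. In NTB libraries 24 members were higher in every white fat library than in any muscle library, 4 were higher in every muscle library and 8 overlapped. The 2 transcription factors were opposed. Tfeb stood at 47.3, 50.4, 73.0, 56.4 and 52.0 CPM in muscle and at 15.8, 12.6, 11.6, 11.6 and 12.6 CPM in white fat, 4.34-fold higher in muscle. Tfe3 stood at 8.78, 8.29, 8.45, 9.47 and 8.16 CPM in muscle and at 41.9, 42.8, 40.2, 47.3 and 36.1 CPM in white fat, 4.83-fold higher in white fat. The ranges of each factor lay far apart between the tissues. Besides Tfeb, Atg9a (3.45-fold), Gaa (2.17-fold), which breaks down glycogen in the lysosome, and Sqstm1 (1.58-fold) were higher in muscle. The largest excesses in white fat were those of Atg7 (7.29-fold), Ctsb (6.97-fold) and Ctsl (6.87-fold), the latter 2 both lysosomal cysteine proteases.

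Related genes from 8 lists of the wider pathway were counted in the same fits. In muscle, IgG1 against NTB, 8 of 156 related genes were called, 5.13%, near the background of 5.6% of all genes. Of these, 1 of 25 genes of other autophagy machinery was higher and 1 lower: Trp53inp1 at 1.07 (SE 0.17, edgeR adjusted p = 0.00294) and Trp53inp2, whose product binds ATG8 proteins, at -1.15 (SE 0.27, edgeR adjusted p = 0.0211). Of 15 mitophagy and ER-phagy genes 1 was higher, the ER-phagy receptor gene Fam134b at 1.01 (SE 0.20, edgeR adjusted p = 0.00941). Of 11 other transcriptional regulators 2 were higher, Cebpb at 1.04 and Nfe2l2 at 0.50. Of 37 other hydrolases 1 was higher, Idua at 0.37, and 1 lower, Ctsk at -1.30, and of 20 lysosomal membrane genes 1 was higher, the cholesterol transporter gene Npc1 at 0.58. Among the V-ATPase subunits that acidify the lysosome, the fusion machinery and the lysosomal mTORC1 control genes 0 of 16, 0 of 12 and 0 of 20 were called. Between 3P10 and IgG1 in muscle all 8 lists had 0 calls.

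In white fat, IgG1 against NTB, 16 of 159 related genes were called, 10.1%, beside 8.64% of all genes. Fam134b had the largest fold change of the related genes called, at 1.80 (SE 0.26, edgeR adjusted p = 0.00394), and Pink1, the kinase that marks damaged mitochondria, and Park2, its ubiquitin ligase partner, were higher at 0.62 and 0.79, so that 3 of 15 mitophagy and ER-phagy genes were higher and 0 lower. The HOPS tethering genes Vps11, Vps33a and Vps16 were higher at 0.46, 0.36 and 0.30, and of the mTORC1 control genes Mtor and Rragc at 0.64 and 0.48. Of 37 other hydrolases 2 were lower, Ctsk at -1.13 and Sgsh at -0.61, and 0 were higher. Other autophagy machinery had 1 of 25 higher (Vmp1, 0.43) and 1 lower (Trp53inp2, -0.55), lysosomal membrane genes 2 of 21 higher (Npc1, 0.79, and Scarb2, 0.67), other transcriptional regulators 2 of 12 higher (Zkscan17, 0.75, and Mitf, 0.70) and V-ATPase subunits 0 of 17 called. In 3P10 against IgG1, 15 of 159 were called, 9.43%, beside 7.42% of all genes. Fam134b (-0.91), Pink1 (-0.52), Vps11 (-0.44), Vps33a (-0.29), Mtor (-0.57) and Rragc (-0.46) were lower, and the hydrolase genes Ctsk (1.11), Ctss (1.05) and Ctsh (0.62) were higher. Both comparisons share the IgG1 libraries. In 3P10 against IgG1, 5 of 15 macrophage and 5 of 8 fibroblast markers were also higher. In IgG1 against NTB, where Ctsk was lower, 0 of 15 macrophage markers were called and 5 of 8 fibroblast markers were lower. The part of these cells in the differences of related genes was not tested.

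In brown fat, 3P10 against IgG1, 21 of 136 related genes were called, 15.4%, beside 11.6% of all genes. In these lists 4 of 22 genes of other autophagy machinery were higher and 1 lower. Trp53inp2 was higher at 0.89 (SE 0.14, edgeR adjusted p = 0.000596) and Trp53inp1 lower at -1.37 (SE 0.25, edgeR adjusted p = 0.00147), and Tmem41b, a lipid scramblase of the ER, was higher at 1.11. Of 14 mitophagy and ER-phagy genes Fam134b and Fkbp8 were lower at -0.83 and -0.46, and Bcl2l13 was higher at 0.48. Of 9 other transcriptional regulators Ppara, the fatty acid receptor, was higher at 0.94 and Foxo1 lower at -0.63. Of 15 mTORC1 control genes, Rraga and Lamtor1 were higher at 0.73 and 0.52 and Rragc was lower at -0.52. Of 30 other hydrolases Psap and Aga were higher at 1.04 and 0.62, and 0 were lower. In IgG1 against NTB in brown fat, 8 of 136 were called, 5.88%, beside 2.97% of all genes, 7 of them higher. Trp53inp1 was higher at 0.92 (SE 0.25, edgeR adjusted p = 0.045), and of 30 other hydrolases Ctss (1.08) and Smpd1 (0.68) were higher. The mTORC1 control genes Flcn (0.56) and Rragc (0.47), the fusion gene Rab7 (0.34) and the V-ATPase subunit gene Atp6v0d1 (0.48) were also higher, and the lysosomal membrane gene Laptm4a was lower at -0.36.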

How the data were processed

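The authors deposited read counts per gene in 2 tables, one for brown fat and one for white fat and muscle; the submitters' processing notes name Trim Galore, STAR 2.6.0a, featureCounts 1.6.2, edgeR 3.22.3 and build mm9, and the gene annotation, strand setting and use of molecular identifiers are not given in the sources used here. Per the labels' protocols, brown fat libraries were 3′ tag libraries (QuantSeq) and those of white fat and muscle were directional RNA libraries (TailorMix), so brown fat was never fitted with the others. Counts were tested with edgeR 4.0.16 (R 4.3.3): TMM factors, filterByExpr with a minimum count of 10 (total 15), and 1 quasi-likelihood model per tissue over its 3 groups, with 14, 12 and 12 residual degrees of freedom in brown fat, white fat and muscle. White fat and muscle shared a joint model for the interaction. A standard error is the log2 fold change divided by the root of its F statistic, and all tests are two-sided. The scripts were tested on simulated data.

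The 36 genes, the related lists and the marker lists were chosen with earlier results of these data known. Members called in a tissue, at most 10, and at most 4 further ones with groups that do not overlap or a contrast within a role, are given library by library; related genes are named up to 3 per list and comparison. Alternatives were DESeq2 1.42.0, RLE factors, 2 other low-count filters, only the 2 groups compared, a replicate block, the libraries numbered 14, 15, 16 and 23 left out or given a term, and each library left out in turn. The labels do not say whether white fat and muscle libraries of the same number come from 1 mouse. Same-numbered libraries had a median correlation of deviations of 0.0868 over 15 pairs (-0.0212 for other pairs of a group), 6 of them over 0.1, and 8 of 15 white fat libraries correlated best with the muscle library of their own number. These values do not exclude that same-numbered libraries are from 1 mouse. The main models hold no block because the labels state no pairing. If the numbers mark mice, the main joint model treats paired libraries as independent. The joint model was also fitted with these numbers as a block. Promoter sequences are RefSeq's (GRCm38.p6), and no other coordinates are printed because the counts rest on mm9.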

Additional observations from a re-analysis of the deposited data

Results flagged for a closer look

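In 11 of 69 groups of libraries examined, 1 library lay far from the others of its group by Dixon's criterion. Chance gives about 1 in 20 among independent groups. The groups here come from chosen genes and share the same libraries, so the 11 cannot be set against that rate. In muscle, 5 of the 11 fell on libraries that stood apart on the first principal component. NTB replicate 3 was high for Map1lc3b (187 CPM, others 126 to 136), Ctsl (199 CPM, others 145 to 161), Gabarap (409.9 CPM, others 171 to 225) and Map1lc3a (203 CPM, others 62.7 to 80.6), and 3P10 replicate 2 was high for Gabarap (425 CPM, others 208 to 270.3).

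In white fat, NTB replicate 1 was low for Nbr1 (111 CPM, others 134 to 142) and 3P10 replicate 2 was high for Wipi1 (55.4 CPM, others 33.9 to 39.8). In brown fat, NTB replicate 6 was high for Ulk1 (114 CPM, others 61.0 to 79.4) and IgG1 replicate 4 for Atg7 (31.6 CPM, others 15.6 to 18.7). For Wipi2, 3P10 replicate 5 was high (93.2 CPM, others 80.6 to 83.8) and NTB replicate 1 was low (46.6 CPM, others 60.2 to 66.5), and each lies on the side away from the other group.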

How the results depend on the processing

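None of the 15 called differences changed direction in any alternative run. Of 79 counts of called members under alternatives other than leaving out 1 library, 64 stayed within 1.5 times. A count of 0 that stayed 0 was taken as unchanged, as for 3P10 against NTB in white fat and muscle. The 64 therefore do not measure how stable the calls are. DESeq2 called 9 members in white fat and 10 in muscle for IgG1 against NTB, 4 in white fat for 3P10 against IgG1, and 1 in the interaction of tissue with IgG1 against NTB. The shares of all genes that DESeq2 called are not given here, so these counts have no background beside them. With only the 2 groups compared, IgG1 against NTB gave 0 calls in brown fat and 1 in muscle, and 3P10 against IgG1 gave 0 in white fat. The call of Bnip3l in white fat between 3P10 and IgG1 was lost (count 0) with no low-count filter, with a term for libraries numbered 14 or above and with the 4 libraries left out, which left 1 call in white fat for IgG1 against NTB. The term gave 18 calls in muscle for IgG1 against NTB and 1 for 3P10 against IgG1. The causes of these shifts were not tested.

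With the replicate number as a block, which the labels give no ground for as a pairing, muscle kept 1 call for IgG1 against NTB and white fat 0 for 3P10 against IgG1. In brown fat Nbr1 was lost under the block at a log2 fold change of 0.43.

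With each library left out in turn, the count of called members ran from 0 to 3 (IgG1 against NTB), 1 to 6 (3P10 against IgG1) and 1 to 3 (3P10 against NTB) in brown fat, from 0 to 6 and 0 to 2 in white fat for the first 2 of these, and from 0 to 11 in muscle for IgG1 against NTB. It ran from 0 to 2 for the interaction with IgG1 against NTB. The count of all genes called ran, in the same order, from 34 to 554, 646 to 1120 and 172 to 675 in brown fat. In white fat it ran from 344 to 2354 and from 127 to 2304, in muscle from 327 to 1307, and for the interaction from 44 to 582. The depth of brown fat, 798886 to 2459761 counts, limits genes such as Atg7 and Vps18.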

Other observations

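In brown fat of the 3P10 group, 11 of 136 genes of the related lists were also called against NTB, all higher, which is 8.09% beside 5.75% of all genes. Among the V-ATPase subunits Atp6v0e was higher at a log2 fold change of 0.45 (SE 0.11, edgeR adjusted p = 0.0223), Atp6v1b2 at 0.44 (SE 0.12, edgeR adjusted p = 0.0308) and Atp6v1a at 0.36 (SE 0.10, edgeR adjusted p = 0.0351). The mTORC1 control genes Lamtor1 and Rraga were higher at 0.37 and 0.47, the fusion gene Ykt6 at 0.51 and the lysosomal protease gene Lgmn at 0.70. The regulator gene Cebpb was higher at 0.45, while in muscle it was higher in the IgG1 group than in NTB at 1.04. The test of a difference between these tissues was not made, since brown fat was prepared with another kit.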
